A study of Mus musculus with 10 samples.

Results

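The CXC chemokines form a family of small chemoattractant proteins, and 10 of the 27670 genes on the array were followed as members. They were chosen by name, as every probe whose gene name, or whose current symbol reached through the accession beside it, was Cxcl1, Cxcl2, Cxcl5, Cxcl9, Cxcl10, Cxcl12, Cxcl13, Cxcl14, Cxcl15 or Cxcl16. This gave 13 of the 41174 probes, with 2 probes each for Cxcl12, Cxcl15 and Cxcl16. Agilent whole mouse genome arrays measured RNA from whole lungs of female BALB/c mice, an inbred strain, with 1 lung per array. In the smoke group 5 mice had breathed cigarette smoke over 8 weeks, and in the room air group 5 mice had breathed room air over the same period. The comparison asks how repeated smoke exposure altered lung gene expression. The labels do not give the age of the mice.

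The labels name a single dye, but each scanner file holds a red and a green channel. The Y-linked gene Ddx3y had a mean log2 signal of 9.92 in green and 2.97 in red over the 10 arrays, whereas the surfactant gene Sftpc had 21.89 in red and 15.50 in green. Red was therefore read as the lung of the female mouse and green as a reference that holds male RNA. A level below is the log2 ratio of lung over reference after normalization within the array, and a difference is the smoke mean minus the room air mean of these ratios. Each direction rests on this reading and on the group to which each scanner file was assigned. The authors' table of processed values has its group names the other way round. All 286449 of its values lay within 0.0001 of the mean log2 signal of the array with the same number in the other group, and 286 lay that close to the array of the same name. That table served as an alternative only.

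Room air replicate 1 stood apart from the other room air lungs before any comparison was made. Its level was far above those of the other 4 room air lungs for 5 of the 10 members, by a gap test at the 95% level, against 2.06% of all probes. It was the highest of all 10 arrays for 7 members, against 14.5% of all probes. For Cxcl1 the excess lay in the lung channel. Its red log2 signal, set against the array's 75th percentile, was 2.53 in this lung and -3.63 to -3.38 in the other room air lungs, while its green signal of 1.38 lay within their range of 1.30 to 1.47. For Cxcl9, the brighter probe of Cxcl12, Cxcl13, Cxcl14 and Cxcl16 green signal of this array lay above that of the other room air arrays. The values were -6.20 against at most -6.62, 3.97 against 3.94, -5.21 against -6.96, -0.64 against -0.87 and -1.88 against -2.03. Red signal was also above theirs for these genes, except at the brighter probe of Cxcl12, where it was lower, at 4.11 against 4.47 to 4.70. On the scanner's measures the array had 71.7% of its probes well above background in red, within a range of 67.8% to 76.7% for the group, and its red signal was 2.16 times background, within a range of 1.81 to 2.46. Differences of the members, of other CXC ligands and of CXC receptors are therefore given with and without this lung. It was singled out by its values in these same data, and leaving it out narrows the room air spread. The p-values without it therefore describe the remaining lungs and are no independent test. Where no other lung had red signal well above background, a value without this lung is given only as a check of the processing.

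CXC chemokines are named for a pair of cysteines near their start that are parted by another residue, and they guide leukocytes through receptors coupled to G proteins. Members with a glutamate-leucine-arginine motif before those cysteines attract neutrophils through Cxcr2, and epithelial cells and macrophages make them when IL-1, TNF or IL-17 activates NF-kB. Others are induced by interferon and attract T cells and NK cells through Cxcr3, while homeostatic members place leukocytes and stromal cells in resting tissue.

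With all 10 arrays, 0 of the 10 members passed the threshold of an adjusted p of 0.05 in limma, against 7.06% of all probes, 4.35% higher and 2.70% lower. At an unadjusted p under 0.05, 1 member passed, Cxcl5, as did 7479 probes. The exact Wilcoxon test, whose smallest p with 5 lungs per group is 0.00794, placed 0 members and 0 probes past the threshold, with 0 members and 5446 probes at an unadjusted p under 0.05. With the slide as a block, where each slide held 1 smoke array and 1 room air array, the count was again 0 of 10, against 12.2% of all probes. When room air replicate 1 was left out, 6 of the 10 members passed, against 8.89% of all probes. Of these 5 were higher with smoke, against 5.37% of all probes, namely Cxcl1, Cxcl2, Cxcl5, Cxcl9 and Cxcl13, and 1 was lower, Cxcl12, against 3.52%. The same 5 members then had every smoke lung above every room air lung, as did 6.02% of all probes; with all arrays no member did, against 4.09%. Leaving out any other array gave 0 members. The median difference over the members was 0.03 with all arrays and 0.36 without room air replicate 1, and over all probes it was -0.00 in both. Over members, the mean level was 2.64 in room air replicate 1, 0.39 to 0.67 in the other room air lungs and 1.06 to 1.42 in the smoke lungs.

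**Figure D1:**
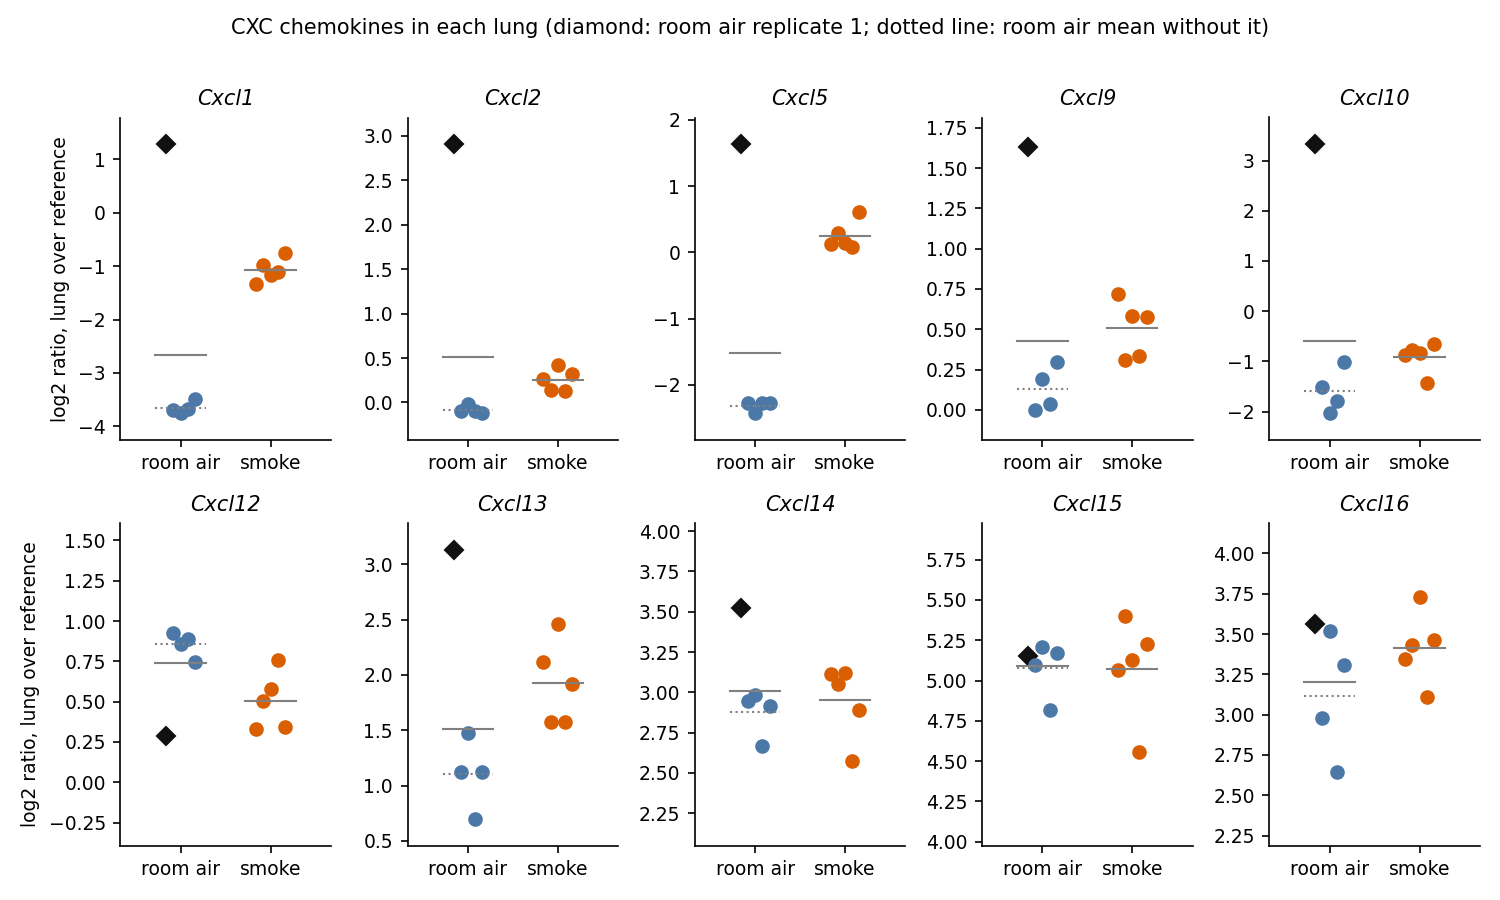
Log2 ratio of lung over reference for the brightest probe of each CXC chemokine, with 1 point per lung and a separate vertical scale per gene; solid lines are group means, the diamond is room air replicate 1 and the dotted line is the room air mean without it. Cxcl1 lay at 1.28 in room air replicate 1, at -3.75 to -3.48 in the other room air lungs and at -1.33 to -0.75 in the smoke lungs.

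Among the neutrophil attractants, Cxcl1 and Cxcl5 had the largest differences of all members. Cxcl1, the mouse chemokine also called KC, had log2 ratios of 1.28, -3.69, -3.75, -3.67 and -3.48 in room air replicates 1 to 5, and of -1.33, -0.98, -1.16, -1.10 and -0.75 in smoke replicates 1 to 5. Among room air lungs, replicate 1 was above every smoke lung, and the other 4 room air lungs were below every smoke lung. The difference was 1.60 (SE 0.84, 3.02-fold) with all arrays, and limma gave an adjusted p of 0.369, or 0.244 in the fit blocked by slide. Leaving out room air replicate 1, the difference was 2.58 (SE 0.11, 5.98-fold), with an adjusted p in limma of 1.49e-07. Its size depended on the processing, for in alternatives chosen after seeing the data that also left out this lung the difference was 3.13 with offset 10, 3.44 with the red channel and 3.56 with the scanner's own ratio. Over the 21 alternatives set beforehand the adjusted p ran from 1.49e-07 to 0.573, and leaving out room air replicate 1 was the only one of them past the threshold. Within slides, smoke minus room air was -2.61 on slide 1 and 2.70, 2.59, 2.56 and 2.73 on slides 2 to 5.

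Cxcl5, which alveolar epithelial cells and platelets can release, had log2 ratios of 1.63, -2.27, -2.42, -2.27 and -2.28 in room air replicates 1 to 5, and of 0.13, 0.30, 0.14, 0.08 and 0.61 in smoke replicates 1 to 5. The order was that of Cxcl1, with room air replicate 1 above and the other room air lungs below all smoke lungs. The difference was 1.77 (SE 0.67, 3.42-fold), with an adjusted p in limma of 0.171, or 0.0977 in the fit blocked by slide. Leaving out room air replicate 1, it was 2.56 (SE 0.10, 5.90-fold), with an adjusted p in limma of 1.19e-07, and alternatives of that kind gave 2.97 with offset 10, 3.26 with the scanner's own ratio and 3.32 with the red channel. Of its 21 alternatives 2 passed, and the range of the adjusted p was 1.19e-07 to 0.510. Smoke minus room air was -1.50 on slide 1 and 2.35 to 2.89 on the other slides.

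Cxcl2, also called MIP-2, is another ligand of Cxcr2. Its log2 ratios were 2.90, -0.10, -0.01, -0.10 and -0.12 in room air replicates 1 to 5, and 0.27, 0.14, 0.42, 0.13 and 0.32 in smoke replicates 1 to 5. Here too room air replicate 1 was highest and the other room air lungs were below every smoke lung. The difference was -0.26 (SE 0.51) with all arrays, with an adjusted p in limma of 0.889. Its sign was not stable with all arrays, since the difference was 0.05 with array weights, 1.03 with the scanner's own ratio and 1.17 with the red channel scaled to its 75th percentile, none of them past the threshold. The sign turned also without room air replicate 1, to 0.34 (SE 0.07, 1.26-fold), with an adjusted p in limma of 0.00907 and a range over alternatives of 0.00907 to 0.978. Red signal was well above background on 2 of 5 room air arrays and on 5 of 5 smoke arrays, so the size of this difference depended on how dim signal was treated. In alternatives chosen after seeing the data, the difference without room air replicate 1 was 0.75 with a smaller offset and 2.28 with the scanner's own ratio.

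Cxcl15, also called lungkine and made by airway and alveolar epithelium, had levels of 4.82 to 5.21 in the room air lungs and 4.55 to 5.40 in the smoke lungs. The groups overlapped, and room air replicate 1, at 5.15, lay among the others. The difference was -0.02 (SE 0.14), with an adjusted p in limma of 0.978, and its other probe gave -0.22 (SE 0.20) and 0.685. Without room air replicate 1 the probes gave -0.00 and -0.16. Only the red channel with quantile normalization placed Cxcl15 past the threshold, at -0.33 with an adjusted p in limma of 0.035, within a range over alternatives of 0.035 to 1.

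Promoter sequences from RefSeq (build GRCm38.p6) were at hand for 8 of the 10 members, and Cxcl5 and Cxcl16 are named only. The letters GGNNTTTCC, an NF-kB-like motif, were sought on both strands from 250 bases before to 50 bases after each start. They occurred in 5.82% of 32851 promoters and in those of 4 of the 8 members, Cxcl1, Cxcl2, Cxcl9 and Cxcl10. The promoter of Cxcl15 held no match. The promoters of Cxcl1, Cxcl2 and their neighbour Cxcl3 are shown because they shared the same 9 letters, GGAATTTCC. These letters begin 70, 96 and 72 bases before the start. The stretches lie on the plus strand at chr5:90891095-90891244, chr5:90903749-90903898 and chr5:90785951-90786100, and capitals mark each match to the motif on either strand.
Cxcl1: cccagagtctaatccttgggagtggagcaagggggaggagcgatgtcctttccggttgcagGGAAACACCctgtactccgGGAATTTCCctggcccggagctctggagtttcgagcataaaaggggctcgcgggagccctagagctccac
Cxcl2: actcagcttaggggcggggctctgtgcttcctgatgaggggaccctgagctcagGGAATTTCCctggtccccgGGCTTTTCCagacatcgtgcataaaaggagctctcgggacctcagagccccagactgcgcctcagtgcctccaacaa
Cxcl3: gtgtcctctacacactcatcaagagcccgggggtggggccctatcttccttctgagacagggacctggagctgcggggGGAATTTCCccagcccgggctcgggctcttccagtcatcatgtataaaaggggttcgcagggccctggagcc
A match describes letters and not a bound site.

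Among the interferon-induced members, Cxcl9, also called MIG, is a ligand of Cxcr3 on activated T cells. Its log2 ratios were 1.63, -0.00, 0.19, 0.04 and 0.30 in room air replicates 1 to 5, and 0.72, 0.31, 0.58, 0.34 and 0.58 in smoke replicates 1 to 5. Again replicate 1 of room air was above all smoke lungs, and the highest of the other room air lungs was just below the lowest smoke lung. The difference was 0.07 (SE 0.27) with all arrays, with an adjusted p in limma of 0.944. It was 0.38 without that lung (SE 0.10, 1.30-fold), with an adjusted p in limma of 0.0332 and a range over alternatives of 0.0332 to 0.993. The reference was not well above background for Cxcl9 on any array, so the ratio has a dim denominator. Of the 5 alternatives that left out room air replicate 1 together with another change, 3 placed Cxcl9 past the threshold. The size varied widely among them, from 0.32 with the slide as a block to 0.86 with offset 10, 1.72 with the red channel and 2.17 with the scanner's own ratio, and the sign with all arrays turned, to -0.03 and -0.02, when room air replicate 2 or 4 was left out.

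Cxcl10, also called IP-10, is a ligand of Cxcr3 as well. Its log2 ratios were 3.32, -1.51, -2.03, -1.79 and -1.01 in room air replicates 1 to 5, and -0.87, -0.78, -0.83, -1.42 and -0.66 in smoke replicates 1 to 5. Room air replicate 1 was far above all other lungs, and the groups overlapped also without it. The difference was -0.31 (SE 0.85), with an adjusted p in limma of 0.925, and it was 0.16 with array weights, 0.04 with the scanner's own ratio and 0.07 with the red channel scaled to its 75th percentile. Its sign turned without room air replicate 1, to 0.67 (SE 0.20), with an adjusted p in limma of 0.0678, within a range over alternatives of 0.0678 to 1. An alternative chosen after seeing the data blocked by slide and left out room air replicate 1. It rests on the slides that still held both arrays, and its adjusted p in limma for Cxcl10 was 0.00762. Of the 5 alternatives that left out this lung together with another change, 3 passed for Cxcl10.

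The promoters of Cxcl9 and Cxcl10 are shown because they held the NF-kB-like motif together with GAAANNGAA, letters of interferon-stimulated elements, which 8.56% of all promoters and 3 of the 8 members held, the other being Cxcl14. The match in Cxcl10 that begins 158 bases before the start reads GGAATTTCC on the other strand, the letters shared by Cxcl1, Cxcl2 and Cxcl3. Both stretches lie on the minus strand, at chr5:92328080-92328299 and chr5:92348890-92349109, and capitals mark matches to either motif.
Cxcl9: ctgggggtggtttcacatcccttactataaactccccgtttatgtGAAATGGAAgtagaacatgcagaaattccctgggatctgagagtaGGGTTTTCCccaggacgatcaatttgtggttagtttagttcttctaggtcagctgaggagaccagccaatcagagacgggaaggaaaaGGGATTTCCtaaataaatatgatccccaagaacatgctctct
Cxcl10: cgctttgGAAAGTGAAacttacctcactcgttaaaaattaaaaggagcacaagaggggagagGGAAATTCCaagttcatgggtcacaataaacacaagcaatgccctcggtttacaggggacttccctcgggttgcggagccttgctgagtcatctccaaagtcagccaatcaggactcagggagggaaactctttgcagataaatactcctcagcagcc
Of the other letters sought, TTCNNNGAA (STAT) was in 8.30% of all promoters and 1 of the 8 members, TGACNNNGC (antioxidant response) in 12.4% and 2, and GCGTG (Ah receptor core) in 32.4% and 4.

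Among the homeostatic members, the probes of Cxcl12 moved in opposite directions. Cxcl12, the ligand of Cxcr4 that holds progenitor cells in the bone marrow and is made by stromal and endothelial cells, was measured by a probe at chr6:117207552-117207611 and another at chr6:117200799-117200858 (build mm7 in the files), on the plus strand and 6753 bases apart. At the brighter probe the log2 ratios were 0.28, 0.93, 0.86, 0.89 and 0.75 in room air replicates 1 to 5, and 0.33, 0.50, 0.58, 0.76 and 0.34 in smoke replicates 1 to 5. The lowest of all lungs was room air replicate 1, and 1 smoke lung reached into the range of the other room air lungs. The difference was -0.24 (SE 0.13), with an adjusted p in limma of 0.369, or 0.0798 in the fit blocked by slide. This probe, without room air replicate 1, fell by 0.35 (SE 0.09, 1.28-fold lower), with an adjusted p in limma of 0.0292. Over its alternatives the adjusted p ran from 0.0292 to 0.636, and with room air replicate 1 left out 1 of 5 further alternatives passed.

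At the dimmer probe of Cxcl12 the log2 ratios were -3.12, -2.85, -3.0, -3.25 and -2.89 in room air replicates 1 to 5, and -2.10, -2.34, -2.10, -2.36 and -2.14 in smoke replicates 1 to 5. Every smoke lung was above every room air lung, and room air replicate 1 lay within its group. This probe rose by 0.82 (SE 0.09, 1.76-fold), with an adjusted p in limma of 0.000211, and by 0.79 without room air replicate 1, with 0.000274. It was the only 1 of the 13 member probes past the threshold with all arrays, and 7 of 13 passed without room air replicate 1. Its adjusted p passed in 19 of 20 alternatives, within a range of 0.000106 to 0.115, the exact Wilcoxon test being the exception. Smoke was higher on all 5 slides, by 0.51 to 1.02. The levels of the probes had a correlation of -0.50 over the 10 lungs. As a mean of both probes, Cxcl12 was 0.29 higher with smoke, with an adjusted p in limma of 0.0436, so the direction given for the gene depends on the probe.

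**Figure D2:**
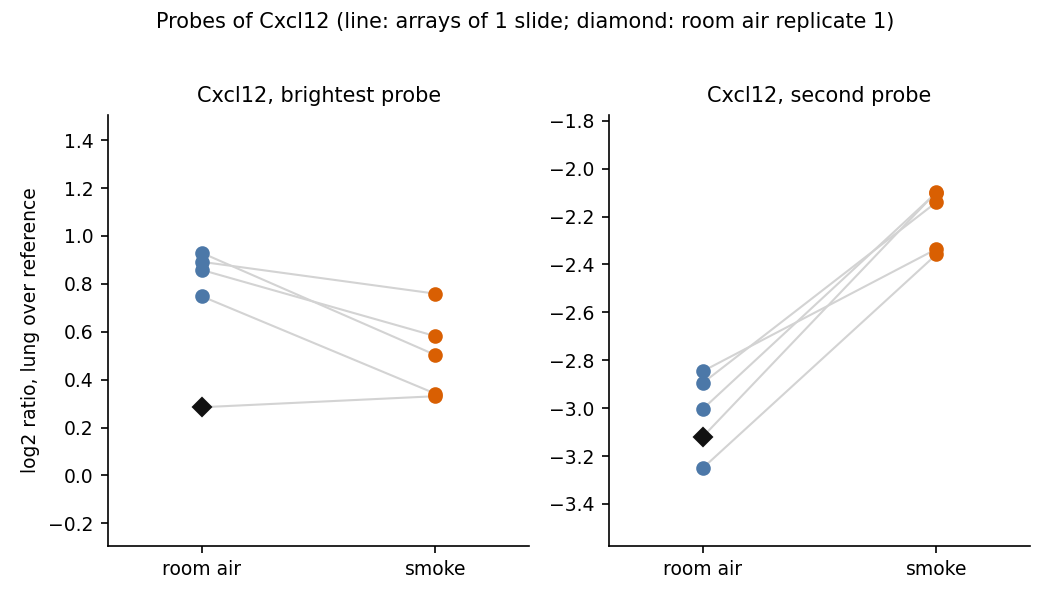
Log2 ratio of lung over reference for each probe of Cxcl12, with 1 point per lung, a line between the arrays of a slide and a diamond for room air replicate 1; both panels span the same height. The brighter probe was lower with smoke on slides 2 to 5, and the dimmer probe was higher with smoke on all 5 slides.

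Cxcl13, the ligand of Cxcr5 that draws B cells into follicles, had log2 ratios of 3.13, 1.12, 1.48, 0.70 and 1.12 in room air replicates 1 to 5, and of 2.11, 1.58, 2.46, 1.58 and 1.92 in smoke replicates 1 to 5. The highest lung was room air replicate 1, and the other room air lungs were below all smoke lungs. The difference was 0.42 (SE 0.39), with an adjusted p in limma of 0.692. It was 0.82 without that lung (SE 0.19, 1.77-fold), with an adjusted p in limma of 0.0233 and a range over alternatives of 0.0233 to 0.888. The reference was well above background on 1 of 10 arrays. Of the 5 alternatives that left out room air replicate 1 together with another change, 3 placed Cxcl13 past the threshold. The difference was 0.99 with offset 10 and 1.30 with the red channel. With the scanner's own ratio it was 0.25, with an adjusted p in limma of 0.866.

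Cxcl14, a chemokine that epithelium makes constitutively, and Cxcl16, a transmembrane ligand of Cxcr6 that also takes up oxidised lipoprotein, did not pass in any alternative set beforehand. Cxcl14 lay at 2.67 to 3.52 in the room air lungs and at 2.58 to 3.12 in the smoke lungs, with room air replicate 1 highest. Its difference was -0.06 (SE 0.15), with an adjusted p in limma of 0.920, and 0.07 without room air replicate 1. Cxcl16 lay at 2.64 to 3.56 in the room air lungs and at 3.11 to 3.73 in the smoke lungs, so the groups overlapped. Its difference was 0.21 (SE 0.17), with an adjusted p in limma of 0.638, and its other probe gave 0.22 (SE 0.19) and 0.647. Without room air replicate 1 the probes of Cxcl16 gave 0.30 and 0.39, with adjusted p in limma of 0.400 and 0.116. Both passed, with 0.013 and 0.00981, when the slide was a block and that lung was left out, an alternative chosen after seeing the data. That fit rests on the slides that still held both arrays. The probes of Cxcl16 had a correlation of 0.76 over the 10 lungs, and those of Cxcl15 a correlation of 0.24.

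**Figure D3:**
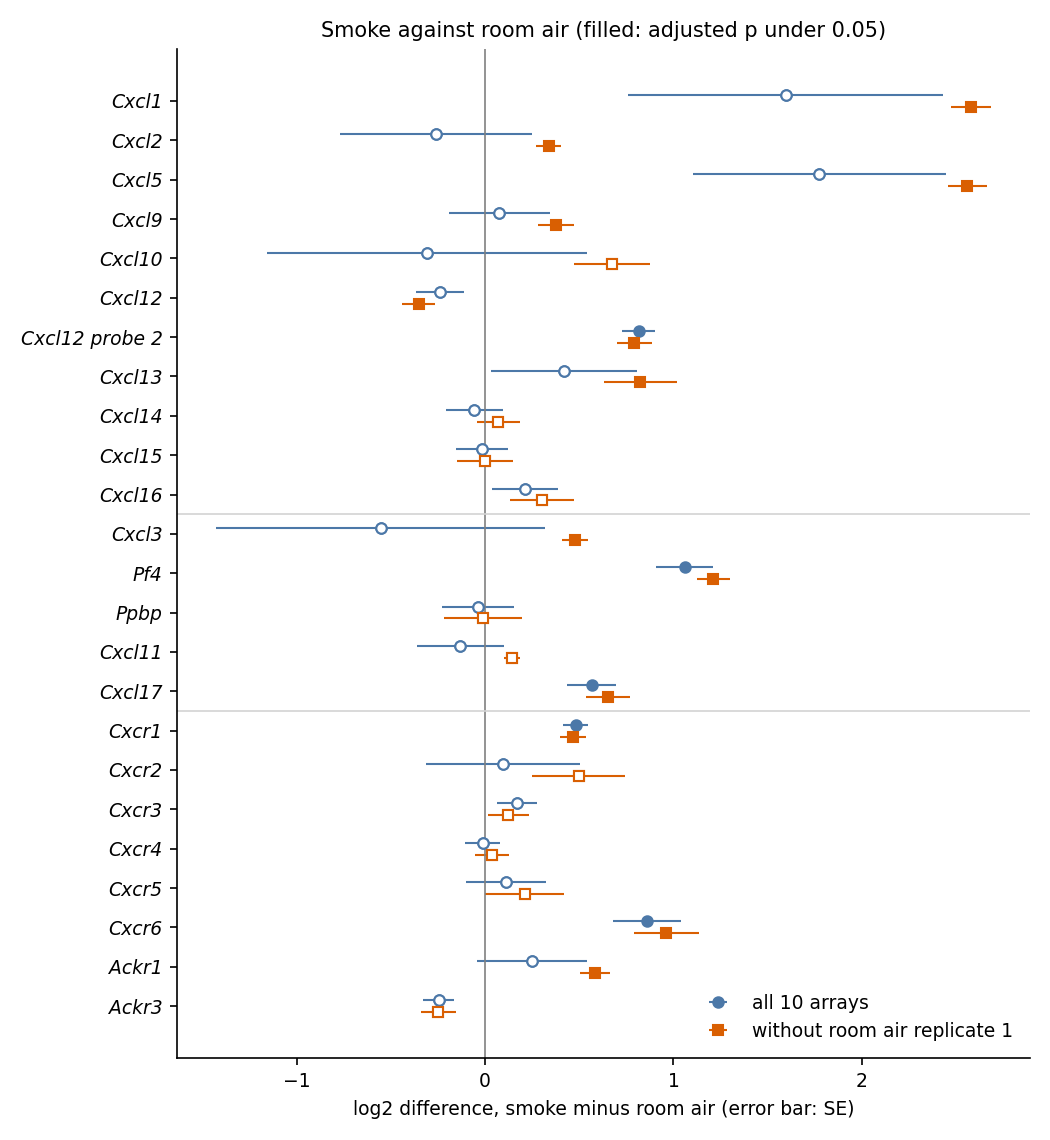
Difference in log2 ratio, smoke minus room air, for the CXC chemokines, other CXC ligands and CXC receptors, with circles for all 10 arrays and squares without room air replicate 1; bars are SE and filled symbols have an adjusted p under 0.05 in limma. Cxcl1 moved from 1.60 to 2.58 and Cxcl5 from 1.77 to 2.56 when room air replicate 1 was left out, and the brighter and dimmer probes of Cxcl12 lay on opposite sides of 0.

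Over the 9 lungs other than room air replicate 1, the 6 members past the threshold without that lung were compared by how their levels deviated from their group means, as a description chosen after the values were seen. The correlation was 0.84 between Cxcl1 and Cxcl5 and 0.84 between Cxcl2 and Cxcl13, and among the 15 pairs of these 6 it was lowest, at -0.72, between Cxcl9 and Cxcl12. Over the same lungs, genes outside the family came closer among the 13835 compared with each member. The closest were Avil to Cxcl1 at 0.97, Minar2 to Cxcl2 at 0.98, Cd302 to Cxcl5 at 0.97 and Cilp to Cxcl13 at 0.99. A value of 0.84 thus does not set these pairs apart. These lungs are not fully independent, as both arrays of a slide deviated together. Of the 10 members, 7 have probes on chromosome 5, the others lying on chromosomes 6, 11 and 13.

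Of the 5 other CXC ligands, 2 rose with all arrays, and 3 did without room air replicate 1. Pf4, a chemokine stored in platelets and also made by macrophages, had log2 ratios of -0.50, -1.11, -1.44, -1.24 and -1.24 in room air replicates 1 to 5, and of 0.18, 0.01, -0.24, -0.11 and -0.08 in smoke replicates 1 to 5. The groups did not overlap. Pf4 rose by 1.06 (SE 0.15, 2.08-fold), with an adjusted p in limma of 0.0015, and by 1.21 without room air replicate 1, with 9.26e-06. Cxcl17, a mucosal chemokine of airway epithelium, lay at 1.69 to 2.23 in the room air lungs and at 2.05 to 2.73 in the smoke lungs, with overlap at room air replicate 1. It rose by 0.57 (SE 0.13, 1.48-fold), with an adjusted p in limma of 0.0225, and by 0.65 without that lung, and 12 of its 21 alternatives passed, within a range of 0.003 to 0.819. Its size differed with the processing, at 0.12 with the scanner's own ratio, 0.34 with offset 10 and 1.65 with the red channel scaled to its 75th percentile. Cxcl3, the neighbour of Cxcl1 and Cxcl2, had log2 ratios of 5.19, -0.15, 0.19, -0.02 and 0.07 in room air replicates 1 to 5, and of 0.40 to 0.57 in the smoke lungs. Room air replicate 1 was far above all other lungs, and the other room air lungs were below all smoke lungs. Its difference was -0.56 (SE 0.88), with an adjusted p in limma of 0.852, and without room air replicate 1 it was 0.48 (SE 0.07, 1.39-fold), with 0.00145. Red signal of Cxcl3 was well above background on 3 of 5 room air arrays, and its size without that lung was 0.93 with offset 10, 2.38 with the red channel and 2.51 with the scanner's own ratio. With all arrays the difference of Cxcl3 was 0.93 with the scanner's own ratio and 0.76 with the red channel, neither past the threshold.

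Ppbp, the precursor of another platelet chemokine, had a difference of -0.04 (SE 0.19), with an adjusted p in limma of 0.964, and of -0.01 without room air replicate 1. The platelet markers Itga2b, Gp9 and Gp1bb gave 0 of 3 past the threshold, with a median difference of 0.14, and their mean level was 0.17 to 0.40 in the room air lungs and 0.03 to 0.98 in the smoke lungs. Cxcl11, a ligand of Cxcr3, was well above background in red in replicate 1 alone among the 5 room air lungs and in 0 of the 5 smoke lungs. Its difference was -0.13, with an adjusted p in limma of 0.874. None of the other 9 lungs had red signal well above background. A difference without room air replicate 1 would compare dim signal only, so it is given below as a check of the processing and not as a result.

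Of the 8 receptors 2 rose. Cxcr1, a receptor for neutrophil attractants, had a red signal well above background in 5 of 5 smoke lungs but 0 of 5 with room air, and rose by 0.48 (SE 0.06), with an adjusted p in limma of 0.001, and by 0.47 without room air replicate 1. Its room air signal was dim and the reference was not well above background on any array, so 0.48 is no exact size. The size differed with the processing, and Cxcr1 rose by 1.05 with offset 10 and by 3.38 with the scanner's own ratio. Its log2 ratios were 0.01, 0.11, 0.12, 0.10 and 0.02 in room air replicates 1 to 5, and 0.52, 0.39, 0.77, 0.54 and 0.53 in smoke replicates 1 to 5. Cxcr6, the receptor for Cxcl16 on T cells and NK cells, lay at 1.85 to 2.53 in the room air lungs and at 2.54 to 3.38 in the smoke lungs. It rose by 0.86 (SE 0.18, 1.81-fold), with an adjusted p in limma of 0.0145, and by 0.96 without room air replicate 1, and 19 of its 21 alternatives passed.

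Cxcr2, the receptor for Cxcl1, Cxcl2, Cxcl3 and Cxcl5, had a level of 3.52 in room air replicate 1, of 1.09 to 1.72 in the other room air lungs and of 1.17 to 2.67 in the smoke lungs. Its difference was 0.10 (SE 0.41), with an adjusted p in limma of 0.954, and 0.50 (SE 0.25) without room air replicate 1, with 0.320. The other probe of Cxcr2 gave 0.12 and 0.29, with 0.835 and 0.171. Among the 5 alternatives that left out this lung together with another change, each probe passed in 1. The adjusted p in limma were then 0.0152 and 0.0228. Ackr1, which binds many chemokines on red cells and venules without signalling, was at 1.87 in room air replicate 1, at 0.04 to 0.38 in the other room air lungs and at 0.60 to 0.88 in the smoke lungs. Its difference was 0.25 (SE 0.29), with an adjusted p in limma of 0.778, and 0.58 (SE 0.08, 1.50-fold) without room air replicate 1, with 0.000801. Without that lung the difference of Ackr1 was 1.02 with offset 10, 1.40 with the red channel and 1.73 with the scanner's own ratio, which did not pass. The other probe of Ackr1 did not pass, at 0.02 with all arrays and 0.19 without that lung, with 0.974 and 0.128. Ackr3, which takes up Cxcl12, was lower with smoke on all 5 slides, by a difference of -0.25 (SE 0.08), with an adjusted p in limma of 0.119, or 0.0384 with the slide as a block, and it was -0.25 without room air replicate 1, with 0.146. Cxcr3, Cxcr4 and Cxcr5, receptors for Cxcl9 and Cxcl10, for Cxcl12 and for Cxcl13, had differences of 0.17, -0.01 and 0.11, and their adjusted p in limma were 0.495, 0.973 and 0.883. Without room air replicate 1 their differences were 0.12, 0.04 and 0.21.

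**Figure D4:**
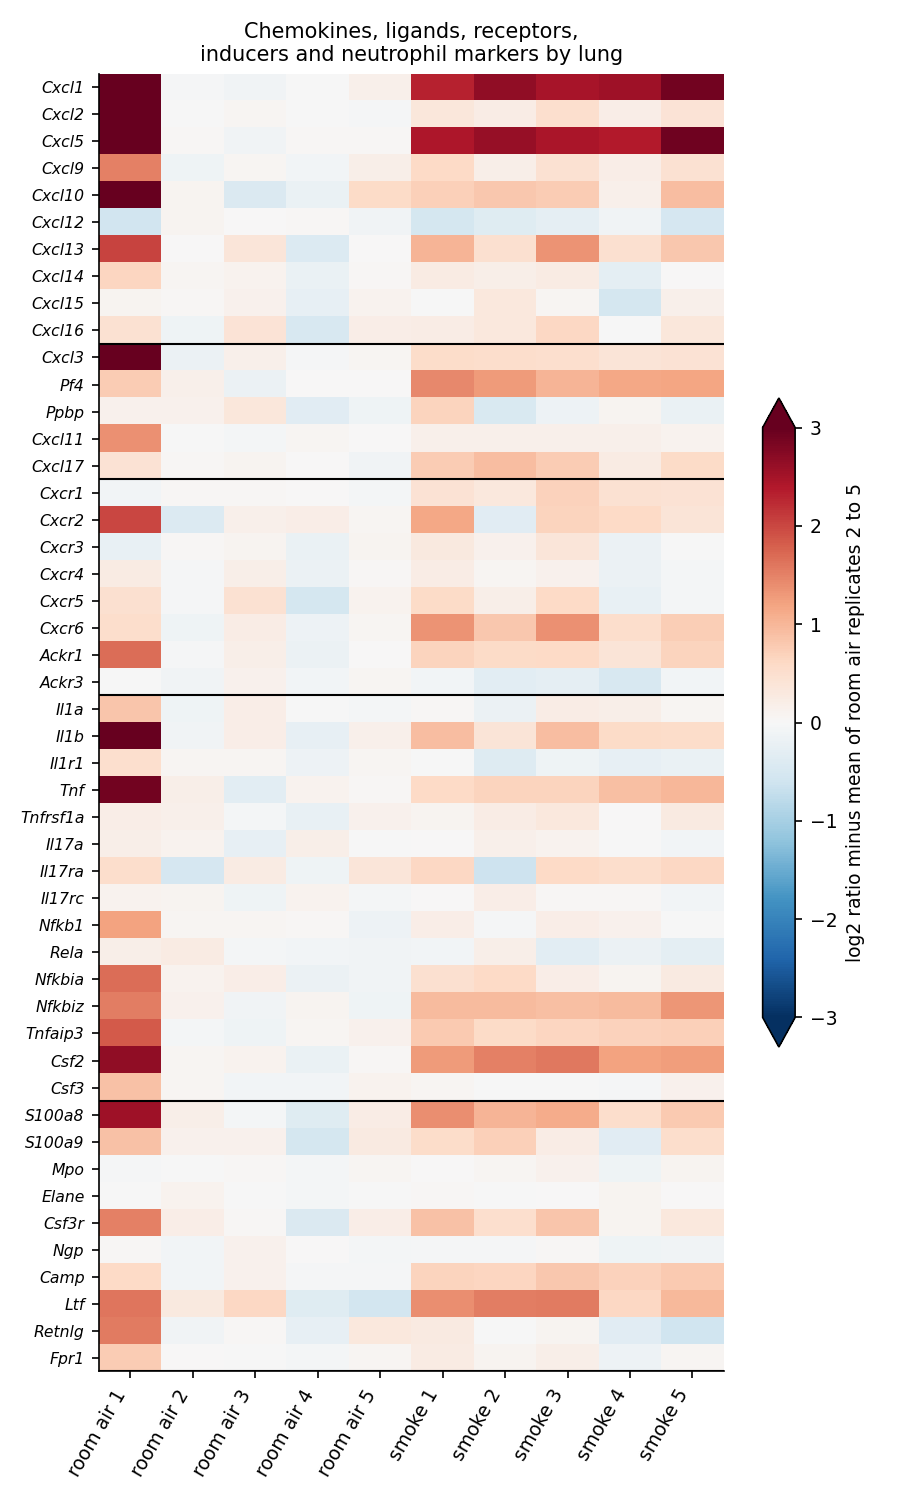
Log2 ratio in each lung minus the mean of room air replicates 2 to 5, for the CXC chemokines, other CXC ligands, CXC receptors, genes of IL-1, TNF, IL-17 and NF-kB, and neutrophil markers, with a colour scale from -3 to 3; lines part the lists. Room air replicate 1 was the highest lung for 7 of the 10 members, 11 of the 15 inducer genes and 6 of the 10 neutrophil markers.

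The inducers of CXC chemokines were read beside them. Of 15 genes of IL-1, TNF, IL-17 and NF-kB, 0 passed in limma with all arrays, and 5 rose without room air replicate 1, namely Il1b, Tnf, Nfkbiz, Tnfaip3 and Csf2. With the slide as a block 1 passed, Il1r1, which was lower, with an adjusted p in limma of 0.029. Room air replicate 1 was the highest of all lungs for 11 of the 15, and its median excess over the other room air lungs was 0.87, against -0.01 over all probes. Il1b, an activator of NF-kB, was at 5.96 in this lung, at 2.41 to 2.85 in the other room air lungs and at 3.05 to 3.58 in the smoke lungs. Tnf was at 1.92 in this lung, at -1.30 to -0.80 in the other room air lungs and at -0.40 to 0.02 in the smoke lungs. Of 12 genes of the interferon-gamma axis 3 passed with all arrays. Il18 rose by 0.82 and Il12b by 0.61, with adjusted p in limma of 6.95e-05 and 0.0155, and Irf1, an activator of interferon-induced genes, fell by 0.30, with 0.0351. Of 21 alternatives each, 20 passed for Il18, 19 for Il12b and 6 for Irf1. Without room air replicate 1, Ifngr2 and Jak2 rose as well, so that 5 of the 12 passed. With the slide as a block 5 passed too, where Ciita rose and Ifng fell, with adjusted p in limma of 0.0125 and 0.0499, beside Il18, Il12b and Irf1. Of 6 lymphoid tissue organising genes, Ccr7 rose by 0.44, with an adjusted p in limma of 0.0402, and 9 of its 21 alternatives passed. Without room air replicate 1 Lta and Ccl19 passed as well, and with the slide as a block Ccr7 and Lta did. Of 7 proteases that cleave CXC chemokines or release them from the membrane, 3 passed: Mmp12 rose by 2.33 (5.04-fold) and Mmp8 by 1.16 (2.24-fold), with adjusted p in limma of 1.66e-06 and 0.021, and Dpp4, which trims Cxcl9, Cxcl10 and Cxcl12, fell by 0.37, with 0.014. The same 3 passed without room air replicate 1, and of 21 alternatives each 20 passed for Mmp12, 15 for Mmp8 and 15 for Dpp4.

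Markers of the cells that make or answer CXC chemokines were counted in the same fit. In whole lung, more or fewer cells of a type and more or less RNA per cell cannot be told apart. Of 10 measured neutrophil markers 1 rose, Camp, by 0.60 with an adjusted p in limma of 0.00881, and without room air replicate 1 S100a8 and Ltf passed as well, and with the slide as a block Camp and Ltf did. Their mean level was 2.81 in room air replicate 1, 1.65 to 1.97 in the other room air lungs and 1.95 to 2.41 in the smoke lungs. S100a9 had the brightest probe, Elane was not well above background on any array, and Ly6g was not on the array by name. The part of neutrophils in the levels of Cxcl1, Cxcl2, Cxcl5 and Cxcr2 was not tested. Of 7 measured alveolar macrophage markers 5 rose, among them Marco by 2.60, Chil3 by 2.12, Cd68 by 2.06 and Itgax by 1.34, and the same 5 passed without room air replicate 1. Fabp4 and Siglecf did not pass, at -0.25 and 0.25, with 0.780 and 0.312. Over the list the mean level was 2.25 to 2.79 in the room air lungs and 3.67 to 4.03 in the smoke lungs. Chil3 had the brightest probe, Ear2 was not on the array by name, and the part of macrophages in the chemokine levels was not tested either.

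Further cell types were counted likewise. Of 8 T and NK cell markers and 7 B cell and follicular dendritic cell markers, 0 passed in limma with all arrays, and without room air replicate 1 Ncr1 fell and Fcer2a rose. With the slide as a block Cd3d, Cd3g and Fcer2a rose, with adjusted p in limma of 0.0327, 0.00539 and 0.0173. Their median differences were 0.06 and 0.12, and Cd3d and Cd79b had the brightest probes. Of 10 alveolar epithelial and 5 airway epithelial markers 0 passed with all arrays or without room air replicate 1, while with the slide as a block Sftpd rose and Aqp5 fell, with 0.0441 and 0.0266. With all arrays these lists had median differences of 0.06 and -0.07 with Sftpc and Scgb1a1 brightest. Mean levels were 3.83 to 4.46 for the alveolar and 5.22 to 5.99 for the airway epithelial markers over all 10 lungs. Of 4 endothelial markers Pecam1 fell by 0.41, with an adjusted p in limma of 0.0488, and of 4 fibroblast markers Pdgfra fell by 0.49 and Dcn by 0.49, with 5.95e-05 and 0.0107, while Col1a1 and Col1a2 did not pass and had differences of 0.25 and 0.07. Of 21 alternatives each, 8 passed for Pecam1, and 20 each for Pdgfra and Dcn. These lists hold cells that make Cxcl12, and their part in the lower level of its brighter probe was not tested. Cldn5 and Col1a2 had the brightest probes of these lists, and their mean levels were 4.75 to 5.45 and -1.27 to -0.78 over all 10 lungs.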

How the data were processed

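Whole-lung RNA of 5 smoke-exposed and 5 room air mice was compared, 1 lung per array, with groups and replicate numbers taken from the labels. The authors deposited scanner output from Agilent Feature Extraction 9.5.3.1, with a red and a green intensity for every spot and its local background. Per the file headers, a log10 ratio of red to green, corrected by the scanner software, is given too. The authors deposited a table of log2 values as well, the mean of both channels, whose scale and content were found from the scanner files; its columns had medians of 8.03, 7.86, 7.34, 8.03 and 7.84 for room air replicates 1 to 5 and of 7.96, 8.06, 7.81, 7.66 and 7.88 for smoke replicates 1 to 5.

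Mean spot signals were corrected with normexp (offset 50) against the median local background, normalized by loess within each array without control spots, and averaged over the spots of a probe. Spots flagged as outliers by the scanner software were left out, 83 to 144 per array. The comparison used limma 3.58.1 (lmFit, eBayes) under R 4.3.3, with two-sided p-values adjusted by Benjamini-Hochberg across the whole array and a threshold of 0.05. Where probes shared a gene, the one brightest in red stood for it. Of all probes, 22951 were named through an accession, 6659 by symbol and 3109 by synonym, and 8455 kept the name in the files.

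The arrays shared 5 slides, which were scanned over 4 days; each held the smoke and room air arrays of 1 replicate number. Deviations from group means of same-numbered arrays had a correlation of 0.157 for replicate number 1 and of 0.415 to 0.55 for the others. Between different numbers the median was -0.123 and the highest 0.205, which is above the value of replicate number 1. Arrays of the other slides thus deviated together, and for the slide of replicate number 1 this was not clear. The main fit does not use the pairing, and an alternative fit blocks on the slide.

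The members, the lists and the view without room air replicate 1 were chosen with earlier results of these data known. The text names all members, other CXC ligands and receptors, and from each further list up to 4 genes past the threshold by size of difference, with genes on which a count of 5 or fewer turns; Il1b and Tnf were taken as examples after their values were seen, as were Ddx3y and Sftpc for the channels. There were 27 alternatives, of which 5 were chosen after seeing the data; these leave out room air replicate 1 together with another change. They changed the test, block, weights, background, normalization, channel, filter and probe rule, and left out each array in turn. Only the group tests, limma and Wilcoxon, were tried on simulated data. Those were ratios with independent noise, with no outlying lung and no shared slides. Background correction, normalization, the reading of the channels and the probe rule were not tested in this way. The number of arrays limits the precision.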

Additional observations from a re-analysis of the deposited data

Results flagged for a closer look

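In each group of 5 lungs, the gap from the highest or the lowest lung to its nearest neighbour was divided by the range of the group and compared with Dixon's critical value at the 95% level. Of 58 groups over the CXC chemokines, other CXC ligands and CXC receptors 15 held a lung beyond it. For 1 group alone chance gives about 1 in 20. The groups share the same lungs, and some are further probes of the same gene. They are thus not independent, and that rate is no measure for the 15. In 12 of the 15 it was room air replicate 1, which was high in 11.

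Among the CXC chemokines, room air replicate 1 was high for Cxcl1 at 1.28 (other room air lungs -3.75 to -3.48), for Cxcl2 at 2.90 (-0.12 to -0.01), for Cxcl5 at 1.63 (-2.42 to -2.27), for Cxcl9 at 1.63 (-0.00 to 0.30) and for Cxcl10 at 3.32 (-2.03 to -1.01). It was low for the brighter probe of Cxcl12 at 0.28 (0.75 to 0.93). Among ligands and receptors it was high for Cxcl3 at 5.19 (-0.15 to 0.19), for Cxcl11 at 1.21 (-0.20 to -0.10), for the probes of Cxcr2 at 3.52 and 1.21 (1.09 to 1.72 and 0.27 to 0.54), and for the probes of Ackr1 at 1.87 and 1.09 (0.04 to 0.38 and 0.16 to 0.32).

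Other lungs stood apart for 3 genes. Smoke replicate 4 was low for Cxcl10 at -1.42 (other smoke lungs -0.87 to -0.66), room air replicate 4 was low for Cxcl15 at 4.82 (5.10 to 5.21), and smoke replicate 5 was low for Cxcl11 at -0.051 (-0.00 to 0.00), where no smoke lung was well above background. The cause was not tested for any of them.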

How the results depend on the processing

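The count of CXC chemokine genes past the threshold, 0 of 10 with all arrays, was 1 with array weights (Cxcl5, 2.16, adjusted p in limma 0.0134), 1 with the red channel and quantile normalization (Cxcl15) and 1 when the probes of a gene were averaged (Cxcl12), and ran from 0 to 6 when each array was left out, the 6 without room air replicate 1. In alternatives chosen after seeing the data, which leave out room air replicate 1 together with another change, it was 8 with the replicate block, 4 with the scanner's own ratio, 6 with offset 10, 3 with median centring and 5 with the red channel scaled to its 75th percentile. Cxcl1, Cxcl2 and Cxcl5 passed in all 5 of these. The replicate block with all arrays changed the call of no member.

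The number of all probes past the threshold was 2906, against 0 with the exact Wilcoxon test, 5019 with the replicate block, 1434 with median centring, 1759 with the red channel scaled to its 75th percentile and 17, all lower, of 25232 probes tested in the authors' table with its columns as labelled, which run the other way round; with room air replicate 1 left out, it was 6088 with the replicate block and 1771 with median centring. Median centring gave 687 higher and 747 lower, against 1793 and 1113. Of 41173 probes tested, 3621 passed with array weights and 2337 with the red channel and quantile normalization. Beside these, 1 of 10 members does not set the members apart under either setting. Averaging the probes of a gene tests genes, so its count is not set beside these. Without room air replicate 1, 3428 probes passed with the scanner's own ratio, 2659 with offset 10 and 2252 with the red channel.

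Signs turned for Cxcl12 as a mean of its probes, to 0.29. When each array was left out, Cxcl2 ran from -0.42 to 0.34 and Cxcl3 from -0.86 to 0.48. With room air replicate 1 left out, Cxcl2 was 0.34 with the replicate block, 2.28 with the scanner's ratio, 0.75 with offset 10, 0.45 with median centring and 2.45 with the red channel, and Cxcl3 was 0.46, 2.51, 0.93, 0.59 and 2.38 in that order. Cxcl10 was 0.66 with the block, 1.06 with offset 10 and 1.35 with the red channel, and Cxcl11 was 0.39 with offset 10. For Cxcl11 none of the 9 lungs was well above background in red, so 0.39 compares dim signal only and is no measured size. The cause of these turns was not tested. A further 70 values changed sign without passing the threshold under either setting. Of the 140 values of members under the other alternatives 123 kept direction and side of the threshold, and 13, of Cxcl2, Cxcl10, Cxcl14 and Cxcl15, turned sign without passing. When an array other than room air replicate 1 was left out, 111 of 117 kept both, and 6, of Cxcl9, Cxcl14 and Cxcl15, turned sign without passing. Dim signal in a channel limits Cxcl2, Cxcl9, Cxcl13, Cxcl3, Cxcl11, Cxcr1 and Ackr1, among others.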

Other observations

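Room air replicate 1 lay above the other room air lungs also for a chemokine of lymphoid tissue and a B cell gene. Ccl19, a chemokine that draws T cells and dendritic cells through Ccr7, was at 5.15 in this lung, at 2.57 to 2.69 in the other room air lungs and at 2.96 to 3.77 in the smoke lungs. Fcer2a, a receptor for immunoglobulin E on B cells, was at 1.65 in this lung, at 0.38 to 0.71 in the other room air lungs and at 1.25 to 1.75 in the smoke lungs, so here it lay within the smoke range. Its difference was 0.71 with all arrays, with an adjusted p in limma of 0.0616, and 0.92 without room air replicate 1, with 0.000292. These examples were chosen after their values were seen.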
